A study of Mus musculus with 15 samples.

Results

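Iron uptake, storage and export in the mouse colon were followed through a set of 10 genes: the transferrin receptor Tfrc, the ferrous iron transporter Slc11a2 (DMT1), the ferric reductases Cybrd1 and Steap3, the ferritin subunits Fth1 and Ftl1, the iron exporter Slc40a1 (ferroportin), the ferroxidase Heph (hephaestin), and the iron regulatory proteins Aco1 (IRP1) and Ireb2 (IRP2). On the array they were read by the probe sets (groups of short oligonucleotides that read 1 transcript region) whose annotation gives a single gene symbol equal to 1 of these names, which gave 24 probe sets of the 45101 on the array. They covered 9 of the 10 genes, out of 18194 genes with such a probe set. All 3 probe sets that list Ftl1 also list other genes, so no value is given for it.

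The heme-fed mice ate a Westernized diet, high in fat (40% of energy) and low in calcium, with 0.5 µmol heme per g for 14 days (9 mice). The controls ate the same high-fat, low-calcium diet without heme (6 mice). All 15 were male C57BL/6 mice of 11 weeks, and RNA from the colon scrapings of each mouse went on an Affymetrix array of its own, so a replicate is a mouse. The values are log2 expression values, so a difference of 1 is a doubling.

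Most cells take up iron by binding iron-loaded transferrin to the transferrin receptor, taking the pair into endosomes, reducing the iron there with Steap3 and moving it into the cytosol with Slc11a2. Iron that is not used is stored in ferritin, built from heavy (Fth1) and light (Ftl1) chains, or leaves the cell through ferroportin with the help of a ferroxidase such as hephaestin. When iron is scarce, the iron regulatory proteins bind hairpins called iron-responsive elements: this stabilises Tfrc mRNA and blocks translation of ferritin and ferroportin mRNA, a step that an array of mRNA levels does not read. In the gut, Cybrd1 and Slc11a2 are best known for uptake of dietary iron at the duodenal surface, while heme is broken open inside the cell by Hmox1, which releases its iron.

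A gene was tested when its signal exceeded 20 (4.32 on the log2 scale) on at least 6 arrays, and the brightest of its probe sets, by mean over all arrays, stood for it. Of 9257 genes tested with limma, 53.6% were called at an adjusted p below 0.05, 27.2% higher and 26.4% lower with heme. Array medians lay between 3.11 and 3.24. All 10 surface colonocyte markers passed the filter, with a mean level of 12.40 to 12.66 in heme-fed mice and 12.31 to 12.48 in controls. Of these markers 4 were called higher, 3 lower and 3 not called, so the similar means do not show that the single markers were unchanged. Hmox1, which responds to heme, lay between 7.90 and 10.11 in heme-fed mice, while all 6 controls lay under the floor of 4.32, at 3.06 to 3.87, which puts it at least 23.1-fold higher with heme. Of the smooth muscle markers 5 of 10 were tested and all 5 were lower with heme (Actg2 and Acta2 among them, the difference of Acta2 being -1.22), with a mean level of 4.51 to 6.36 in heme-fed mice and 5.86 to 9.45 in controls. Actg2 was at or under the floor in 6 of 9 heme-fed mice, so the mean level with heme rests partly on values under the floor. Of the tested markers, 6 of 8 goblet, 4 of 7 enteroendocrine, 3 of 3 tuft and 3 of 3 proximal colon genes were lower. The tuft gene Trpm5 was at or under the floor in all 9 heme-fed mice. It passed the filter only through controls and had to come out lower. Dclk1, also of the tuft list, was at or under the floor in 7 of 9 heme-fed mice. Of the small intestine genes only 4 of 8 on the array were tested, of which 3 were higher and 1 was not called. In bulk RNA, fewer cells of a type and less RNA per cell cannot be told apart. Control mouse 2 had the highest smooth muscle level of all 15 mice (9.45), control mouse 4 had a mean of 3.19 over 3 distal colon position genes against 6.81 to 8.94 in the other controls, and heme mouse 6 had the interferon-induced gene Gbp2 at 11.28 against 4.68 to 5.64 in the other heme-fed mice. These 3 mice are left out in an alternative given beside the results that rest on them.

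Of the 8 iron genes that passed the signal filter, Tfrc and Aco1 were higher with heme, Ireb2 was lower, and the other 5 (Fth1, Slc40a1, Slc11a2, Heph and Steap3) were not called. The called share was 37.5% of these 8 genes, against 53.6% of all genes tested. Their median difference was 0.01, against -0.01 over all genes tested. The same 2 genes were higher and the same gene lower without control mouse 2, control mouse 4 and heme mouse 6. Cybrd1 lay under the floor on all 15 arrays and was not tested. At the level of probe sets, 9 of the 18 tested were higher and 2 were lower with heme, where 26.1% and 24.3% of all 15717 probe sets tested were higher and lower. The 9 are not independent, since 6 of them read Tfrc, 2 read Aco1 and 1 reads Steap3, and the Steap3 probe set passed the filter only through heme-fed mice.

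**Figure D1:**
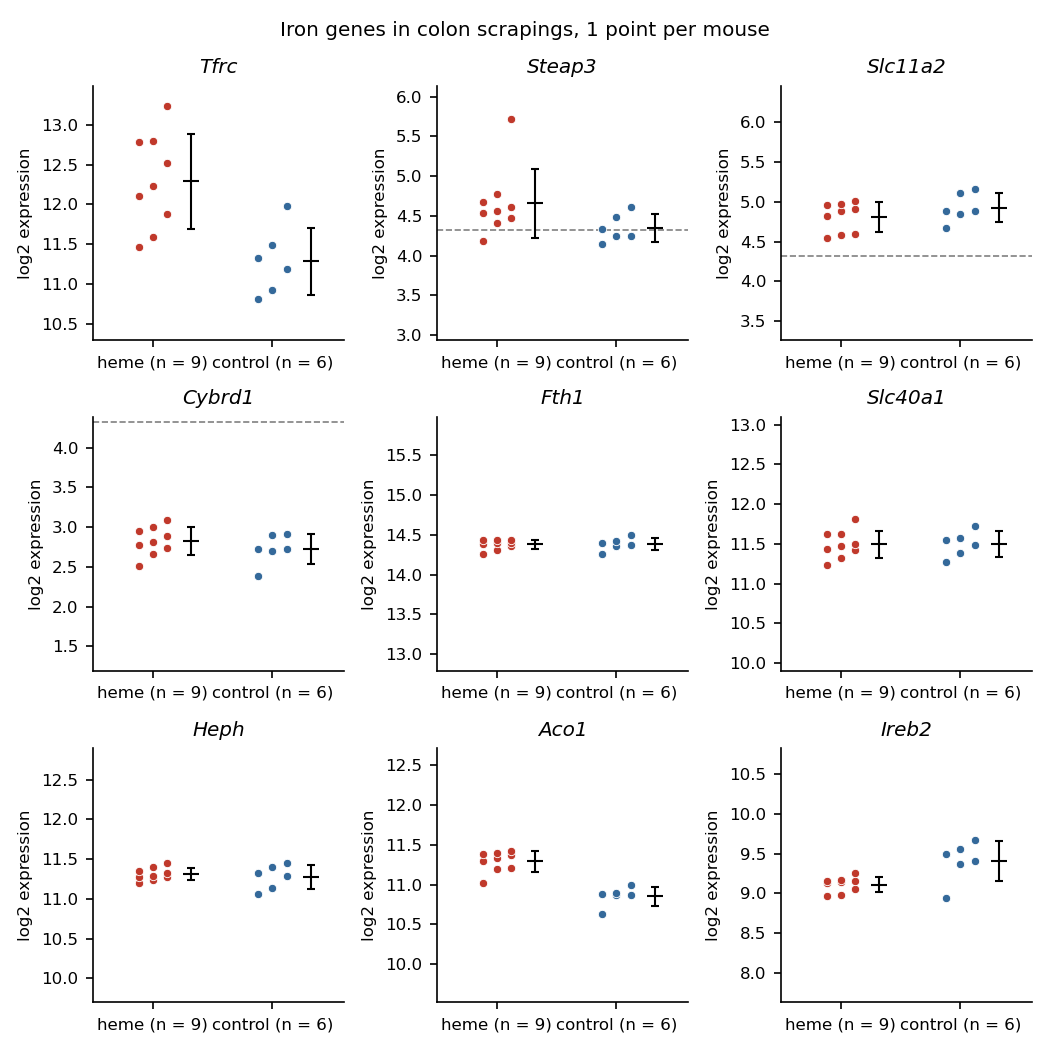
Log2 expression of each measured iron gene (its probe set with the highest mean level) in every mouse, heme-fed mice left and controls right in each panel, with the mean ± SD as a black bar, the same span of log2 units in every panel and the signal floor of 4.32 as a dashed grey line. Tfrc and Aco1 sit higher in heme-fed mice and Ireb2 lower, while the heme and control points of Fth1, Slc40a1 and Heph cover the same range and Cybrd1 stays under the floor.

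Among the uptake genes, Tfrc was the gene that rose. Its main probe set measured a lowest value of 11.46, a median of 12.23 and a highest value of 13.24 in heme-fed mice, against 10.81, 11.26 and 11.98 in controls. The groups overlapped: 6 of 9 heme-fed mice lay above every control and all 9 lay above the control median. Mean levels were 12.29 ± 0.60 with heme (SD, n = 9) and 11.29 ± 0.42 in controls (SD, n = 6), a difference of 1.00 ± 0.26 (SE, limma, adjusted p = 0.00420). That is 2.01-fold, with a 95% interval of 1.37-fold to 2.94-fold, and an exact two-sided permutation test over all 5005 splits of the mice gave p = 0.00440 (not adjusted). Among all genes tested, 3.04% rose by more than Tfrc. Without control mouse 2, control mouse 4 and heme mouse 6 the difference was 1.20 ± 0.29 (limma, adjusted p = 0.00418). Adding the smooth muscle level as a covariate gave 1.37 ± 0.39 (limma, adjusted p = 0.0123). That level nearly separates the groups (4.51 to 6.36 with heme, 5.86 to 9.45 in controls). Fits with this covariate therefore cannot cleanly separate muscle content from diet.

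For Tfrc, a stretch at the transcription start is shown with its match to ACGTG. These are the core letters bound by hypoxia-inducible factors, which are known to act on this gene. Whether they act on Tfrc in these mice was not tested. The stretch lies at chr16:32608882-32608911 on the plus strand of GRCm38.p6, from RefSeq, and the capitals mark the match.
Tfrc promoter: ctcggtaggtgtACGTGcggaaggaagtga
The first base of the match lies at -2 from 1 annotated Tfrc start and at -228 from the other. Of 32851 promoters of 300 bases, 19.6% held ACGTG on either strand, so a match is common. The letters CACGTG, an E-box bound by Myc and many other factors that contains ACGTG, were in 7.15% of promoters and in none of the 12 promoter entries of the 7 iron genes in that table. The same held for TGACNNNGC, a core of the antioxidant response element bound by Nrf2, which was in 12.4% of all promoters. Slc40a1, Slc11a2 and Heph had no entry, and sequence outside the 300 bases was not searched. With shares of this size, 12 entries are too few to show that either site is missing from the iron genes. Of the 12 entries 2 held ACGTG, both of them Tfrc entries that cover the same stretch.

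The rise of Tfrc did not rest on 1 probe set. All 6 probe sets of Tfrc were called higher with heme, 3 of them being control features that read the 3′ end, the middle and the 5′ end of the transcript. The probe set with the largest difference (1422967_a_at) measured a lowest value of 6.23, a median of 7.19 and a highest value of 8.67 in heme-fed mice, against a median of 5.65 and a highest value of 6.45 in controls, where the lowest mouse lay under the floor. Here 8 of 9 heme-fed mice lay above every control, and the difference was 1.88 ± 0.42 (SE, limma, adjusted p = 0.00179). The probe set 1422966_a_at measured 7.52, 8.63 and 9.68 in heme-fed mice as lowest, median and highest value, against 6.03, 6.92 and 7.52 in controls. It also had 8 heme-fed mice above every control, with a difference of 1.55 ± 0.34 (SE, limma, adjusted p = 0.00136).

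The 3 control features of Tfrc gave differences between those of the main probe set and of 1422967_a_at. The 3′ feature was at 7.73 to 9.73 with heme and 6.64 to 7.93 in controls, a difference of 1.43 ± 0.32 (SE, limma, adjusted p = 0.00174). The middle feature was at 6.07 to 8.26 with heme and 4.67 to 6.20 in controls, a difference of 1.51 ± 0.37 (SE, limma, adjusted p = 0.00339). The 5′ feature was at 6.12 to 8.25 with heme and 4.54 to 6.29 in controls, a difference of 1.64 ± 0.39 (SE, limma, adjusted p = 0.00259). The main probe set thus gave the smallest of the 6 differences, and its values were also nearest to the array maxima of 14.63 to 14.80. The excess of the 3′ over the 5′ feature, a measure of how much of the transcript was copied to its 5′ end, averaged 1.63 ± 0.30 with heme (SD, n = 9) and 1.84 ± 0.19 in controls (SD, n = 6), which did not pass an exact two-sided permutation test (p = 0.148). The same excess was also lower with heme for the control features of Gapdh (-0.05) and Actb (-0.06), with exact two-sided permutation p = 0.0645 and 0.175. These tests do not show equal RNA quality in the groups.

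**Figure D2:**
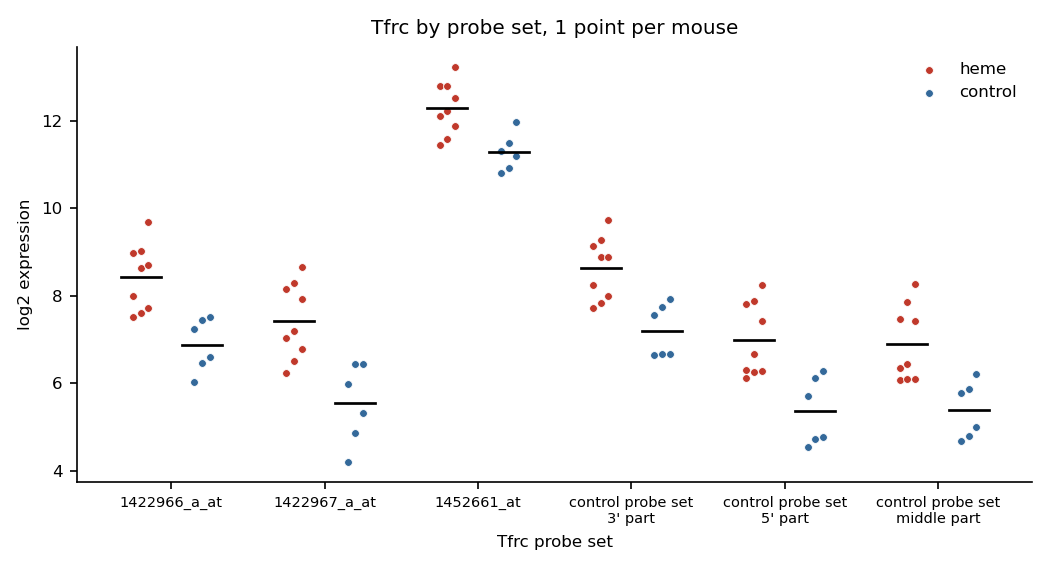
Log2 expression of the 6 Tfrc probe sets, 1 point for each mouse, heme-fed mice to the left of controls within each probe set and the mean of each group as a black line. Heme mouse 1 was the highest of all 15 mice on each of the 6 probe sets, and the differences between heme-fed and control mice ran from 1.00 to 1.88.

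The spread of Tfrc among heme-fed mice was wide and its order held across the 6 probe sets. The SD of 0.60 among heme-fed mice was exceeded by 1.39% of all genes tested. With group means removed, the 15 pairs of Tfrc probe sets correlated at 0.927 to 0.982 over the 15 mice, which share arrays and target gene, so this describes the order of the mice and is no independent replication. Heme mouse 1 ranked first on all 6 probe sets, heme mice 2 and 3 ranked 2 or 3, and heme mice 4 and 5 ranked no better than 8 and 6. Control mouse 2 was the highest control, ranking 7 to 9 and so level with the lowest heme-fed mice. The mouse with the highest Tfrc was not the mouse with the highest Hmox1, which was heme mouse 2 (10.11, against 7.90 in heme mouse 1). Within the 9 heme-fed mice Tfrc and Hmox1 had Pearson's r = -0.06 (exact permutation p = 0.871) and Spearman's rho = -0.07 (exact permutation p = 0.880). Without the 2 mice farthest from the median of Hmox1, r was -0.02. Among the 6 controls they had r = -0.18 (exact permutation p = 0.728) and rho = 0.09 (exact permutation p = 0.919), with r at -0.62 without the 2 farthest mice. These are 2 of 8 relations computed for Tfrc, and both adjusted p for r were 0.962.

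Slc11a2, which moves ferrous iron across the endosomal membrane and, in the duodenum, the apical membrane, lay close to the floor and 2 of its 4 probe sets, the ones tested, did not give the same call. The probe set with the highest mean (1452078_a_at) measured a lowest value of 4.54, a median of 4.89 and a highest value of 5.01 in heme-fed mice, against 4.67, 4.89 and 5.16 in controls. The 2 groups had the same median, and the difference of -0.12 ± 0.09 (SE) was not called (limma, adjusted p = 0.313, 95% interval -0.32 to 0.08). The probe set 1426441_at measured 3.76, 4.21 and 4.82 in heme-fed mice, against 4.22, 4.56 and 5.22 in controls. It was called lower, by -0.40 ± 0.16 (SE, limma, adjusted p = 0.0459), with 5 of 9 heme-fed mice and 1 of 6 controls at or under the floor. The probe set 1417584_at was under the floor in all 9 heme-fed mice (3.41 to 3.79) and in 2 of 6 controls (3.53 to 4.60), so it was not tested. The probe set 1441709_at was under the floor on all 15 arrays. Which Slc11a2 transcript form each probe set reads was not analysed here.

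Of the ferric reductases, Steap3, which works in endosomes beside the transferrin receptor, was low in both groups. Its highest probe set (1430355_a_at) measured a lowest value of 4.18, a median of 4.56 and a highest value of 5.72 in heme-fed mice, against 4.15, 4.29 and 4.61 in controls. The difference of 0.31 ± 0.17 (SE) was not called (limma, adjusted p = 0.143), and heme mouse 9 alone set the highest value, with the other 8 heme-fed mice at 4.77 or less. Without heme mouse 9 the difference was 0.18 (limma, adjusted p = 0.117). The probe set 1423468_at had a median of 4.35 and a highest value of 5.42 in heme-fed mice, against 3.58, 4.08 and 4.15 as lowest, median and highest value in controls, with no overlap between the groups. Since all 6 controls and 3 of 9 heme-fed mice lay under the floor, it passed the filter only through 6 heme-fed mice and had to differ, so no test of it is given. The third, 1453498_x_at, was under the floor on all arrays. Groups that do not overlap with heme higher made up 10.6% of all probe sets tested.

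Cybrd1, the duodenal reductase, lay under the floor with both probe sets. The higher of them measured 2.51 to 3.09 in heme-fed mice and 2.39 to 2.91 in controls, and the other 2.27 to 3.02 in heme-fed mice and 1.97 to 2.76 in controls. These values do not separate a low level from none.

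**Figure D3:**
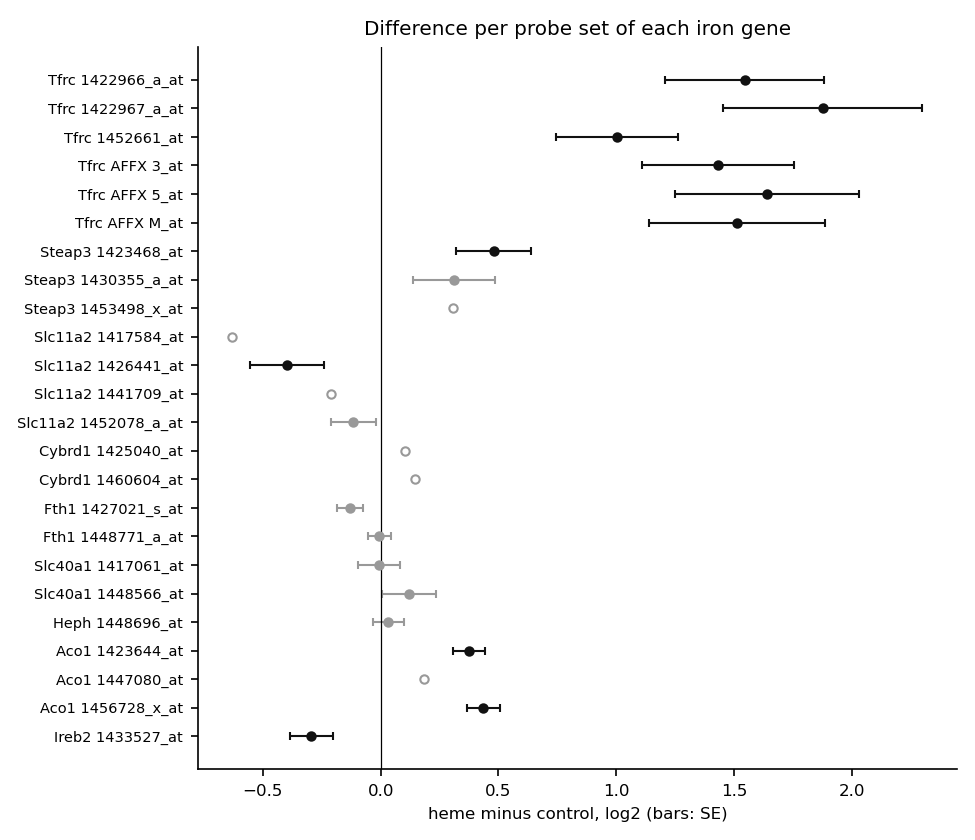
Difference in log2 expression, heme minus control, with its standard error for each iron gene probe set, grouped by gene. Black points passed limma's adjusted p of 0.05, grey points did not and open points were not tested, and the black Steap3 point passed the filter only through heme-fed mice; all 6 Tfrc and both tested Aco1 points lie above 0, while the Fth1, Slc40a1 and Heph points lie near 0.

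For iron storage, Fth1 mRNA was not called different between the groups, whose values covered nearly the same range. Fth1, the ferritin heavy chain that oxidises iron for storage, measured a lowest value of 14.26, a median of 14.40 and a highest value of 14.44 in heme-fed mice, against 14.26, 14.38 and 14.50 in controls. The difference was -0.01 ± 0.05 (SE, limma, adjusted p = 0.928), with a 95% interval of -0.11 to 0.09. These values lay within 1 log2 unit of the array maxima of 14.63 to 14.80, at the top of the scale, so the interval holds for array values and bounds no change in mRNA. The probe set 1427021_s_at measured 13.58, 13.72 and 13.82 in heme-fed mice, against 13.75, 13.80 and 13.96 in controls. Although 6 of 9 heme-fed mice lay below every control, its difference of -0.13 ± 0.06 (SE) was not called (limma, adjusted p = 0.0596). The difference of Fth1 ran from -0.07, with its probe sets averaged, to 0.08, with quantile normalization, and was not called in any alternative.

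The export genes were likewise not called. Slc40a1, the only known cellular iron exporter of mammals, measured a lowest value of 11.23, a median of 11.47 and a highest value of 11.81 in heme-fed mice, against 11.27, 11.52 and 11.73 in controls. Its difference was -0.01 ± 0.09 (SE, limma, adjusted p = 0.945), with a 95% interval of -0.20 to 0.18, and the heme-fed mice spread over the range of the controls on both sides. The other probe set, 1448566_at, measured 10.72, 11.05 and 11.51 in heme-fed mice, against 10.66, 11.00 and 11.23 in controls, and was not called either (difference 0.12 ± 0.12 SE, limma, adjusted p = 0.400). Macrophages also carry ferroportin; of their markers 5 of 13 were tested, Mrc1 and C1qa among them, and none was called, while 4 were called higher with the smooth muscle covariate, 3 without control mouse 2, and 1 without control mouse 3 or heme mouse 9, with median centring or with array weights. Their mean level was 6.49 to 7.19 in heme-fed mice and 5.91 to 8.12 in controls, and Cd68 and Cd163 lay under the floor on all arrays. Heph, the membrane ferroxidase that oxidises exported iron so that transferrin can bind it, measured 11.20, 11.29 and 11.45 in heme-fed mice, against 11.06, 11.31 and 11.45 in controls. Its difference was 0.03 ± 0.06 (SE, limma, adjusted p = 0.688), with a 95% interval of -0.10 to 0.17. The signs of both differences turned under other alternatives, as given with the dependence on the processing. A p above the threshold does not show equal levels of Slc40a1 or Heph.

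The 2 iron regulatory proteins moved in opposite directions. Aco1, which serves as a cytosolic aconitase when it holds an iron-sulfur cluster and binds iron-responsive elements when it does not, measured a lowest value of 11.02, a median of 11.33 and a highest value of 11.42 in heme-fed mice, against 10.63, 10.87 and 10.99 in controls. All 9 heme-fed mice lay above every control, which held, with heme higher, for 11.2% of all genes tested. The difference was 0.44 ± 0.07 (SE, limma, adjusted p = 9.50e-05), or 1.35-fold, and the exact two-sided permutation p of 0.000200 was the smallest that 5005 splits allow. The probe set 1423644_at measured 9.32, 9.58 and 9.75 in heme-fed mice, against 9.11, 9.21 and 9.35 in controls, a difference of 0.37 ± 0.07 (SE, limma, adjusted p = 3.24e-04) with 8 of 9 heme-fed mice above every control. The third probe set, 1447080_at, was under the floor on all arrays and not tested. Control mouse 1 was the lowest control on the main probe set (10.63, the others at 10.87 to 10.99). Without control mouse 2, control mouse 4 and heme mouse 6 the difference was 0.46 (limma, adjusted p = 7.27e-04).

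Ireb2, which is controlled by iron-dependent breakdown of its protein through Fbxl5, measured a lowest value of 8.96, a median of 9.14 and a highest value of 9.25 in heme-fed mice, against 8.94, 9.45 and 9.67 in controls. All 9 heme-fed mice lay below the control median, but none lay below every control, because control mouse 2 had the lowest value of all 15 mice (8.94). Mean levels were 9.11 ± 0.09 with heme (SD, n = 9) and 9.40 ± 0.25 in controls (SD, n = 6), a difference of -0.30 ± 0.09 (SE, limma, adjusted p = 0.0117), or 0.815-fold. The exact two-sided permutation p was 0.00679 (not adjusted). Without control mouse 2 the difference was -0.39 (limma, adjusted p = 1.49e-04) and the remaining 5 controls lay at 9.37 to 9.67. With the smooth muscle level as a covariate it was -0.57 (limma, adjusted p = 8.80e-04), and with the replicate number as a block it was -0.28 and not called (limma, adjusted p = 0.0807). In the block fit only heme-fed mice that share a number with a control carry weight, and the numbers did not pair mice. The array reads mRNA, so neither the RNA binding of Aco1 nor the protein level of Ireb2 is measured here.

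The likeness of other genes to the 3 called members was taken as Pearson's r over the 15 mice with group means removed, as a description of mice that share arrays. The closest to Tfrc were Prpf4b (r = 0.88), Cnep1r1 (0.80) and Wdr82 (0.78). Of these Cnep1r1 was called higher with heme (difference 0.21, limma, adjusted p = 0.0111), and Prpf4b and Wdr82 were not called. The closest to Aco1 were Ttll1 (0.85), Rpl37 (0.84) and Ybx3 (0.83). The closest to Ireb2 were Pir (0.94), Etfa (0.93) and Nsmce1 (0.93), where the r among controls, which include the low control mouse 2, was 0.97 to 0.99 and among heme-fed mice 0.69. Ireb2 was lower with heme while Pir, Etfa and Nsmce1 were higher, with differences of 2.69, 0.41 and 0.40.

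Within the iron genes, Tfrc and Slc11a2 shared the order of mice although only Tfrc was called between the groups; this pair was picked after its values were seen. Slc11a2 (1452078_a_at) had r = 0.77 to Tfrc with group means removed and stood at rank 7 of 9256 genes by r, and from the side of Slc11a2, Tfrc stood at rank 2. Because of that choice, the values within the groups are a description with no test. Among the 9 heme-fed mice r was 0.84 and rho 0.80, with r at 0.82 without the 2 mice farthest from the median of Slc11a2. Among the 6 controls r was 0.61 and rho 0.77, with r at 0.47 without the 2 farthest mice. Heme mice 4, 5 and 7 were the 3 lowest heme-fed mice for both genes. The other tested Slc11a2 probe set, 1426441_at, had r = 0.40 to Tfrc, with 5 heme-fed mice and 1 control at or under the floor, and 1452078_a_at itself spans under 1 log2 unit near the floor.

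**Figure D4:**
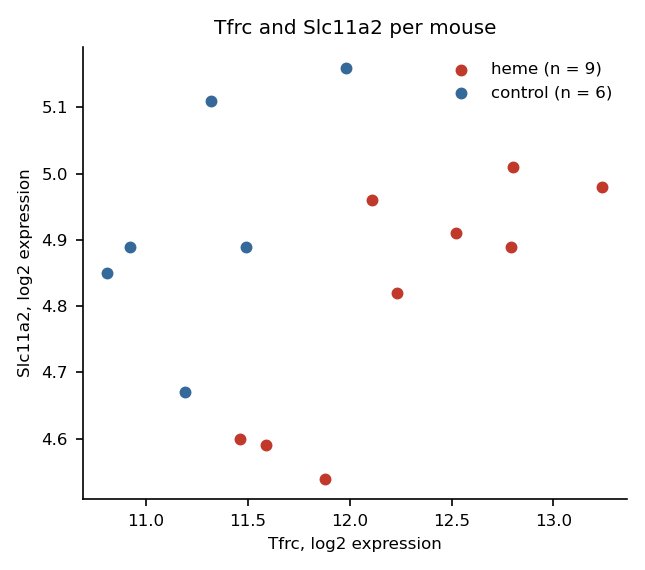
Log2 expression of Slc11a2 (1452078_a_at, vertical axis) against Tfrc (1452661_at, horizontal axis), 1 point for each mouse, heme-fed mice and controls in separate colours. Within the heme-fed mice r was 0.84 and within the controls 0.61, and the heme-fed points lie to the right of most controls.

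Tfrc is also known to be high in dividing cells. The proliferation list was called higher with heme in 17 of 18 genes tested (94.4%, median difference 0.98), against 27.2% of all genes tested. Its marker Mki67 was at 10.12 to 10.60 in heme-fed mice and 9.38 to 9.95 in controls, a difference of 0.62 ± 0.09 (SE, limma, adjusted p = 6.45e-05), while Myc was not called (-0.35 ± 0.21 SE, limma, adjusted p = 0.181; 0.23 with the smooth muscle covariate). Among the 9 heme-fed mice Tfrc had r = 0.02 to the mean proliferation level (exact permutation p = 0.962) and rho = -0.13 (exact permutation p = 0.744). Without the 2 mice farthest from the median proliferation level, r was -0.55. Among the 6 controls r was 0.75 (exact permutation p = 0.0764, adjusted 0.306) and rho 0.83 (exact permutation p = 0.0583, adjusted 0.233), with r at 0.90 without the 2 farthest mice. Against the smooth muscle level, Tfrc had r = 0.17 among heme-fed mice (exact permutation p = 0.662; rho 0.13, exact permutation p = 0.744) and 0.57 among controls (exact permutation p = 0.222; rho 0.37, exact permutation p = 0.497). Without the 2 mice of each group farthest from its median smooth muscle level, r was 0.01 and 0.58. The part of cell composition in the Tfrc rise was not tested beyond the covariate above, which can hardly be told apart from diet.

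Around these genes, a list of other iron transporters, metal reductases and oxidases held more genes called lower than higher. Of 15 such genes on the array 8 were tested, of which 4 were lower, 1 was higher and 3 (Steap2, Mcoln1 and Sfxn1) were not called, a called share of 62.5% against 53.6% of all genes. Slc39a14 (ZIP14), a transporter of non-transferrin-bound iron, zinc and manganese, averaged 7.10 ± 0.27 with heme and 7.93 ± 0.15 in controls, a difference of -0.83 ± 0.12 (SE, limma, adjusted p = 3.15e-05). All 9 heme-fed mice lay below every control, as they did for 8.93% of all genes tested. With all probe sets of the gene averaged, the difference of Slc39a14 was -0.44. Its relative Slc39a8 (ZIP8) differed by -0.67 ± 0.14 (SE, limma, adjusted p = 8.51e-04), with 6 of 9 below. Both mitoferrins, which carry iron into mitochondria, were lower: Slc25a37 by -0.33 ± 0.06 (SE, limma, adjusted p = 5.10e-04) with 9 of 9 below and Slc25a28 by -0.28 ± 0.07 (SE, limma, adjusted p = 0.00452) with 8 of 9 below. The call of Slc25a28 was lost with the smooth muscle covariate (-0.15, limma, adjusted p = 0.273). The 1 gene that was higher was Steap1, a homolog of Steap3 (0.76 ± 0.18 SE, limma, adjusted p = 0.00258), which was no longer called in the fit with a block for replicate number (0.63, limma, adjusted p = 0.0632). Tfr2, Ltf, Cp, Hephl1, Steap4, Lcn2 and Prom2 lay under the floor on all arrays.

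The genes that hand iron on, release it from ferritin or sense it were mostly not called. Of 10 tested, 1 was higher, 2 were lower and 7 were not called, a called share of 30% against 53.6% of all genes tested. With median centring 3 were higher and 1 was lower. Hif1a, the oxygen-regulated transcription factor subunit, was at 11.10 ± 0.22 with heme and 9.84 ± 0.72 in controls, a difference of 1.26 ± 0.23 (SE, limma, adjusted p = 3.21e-04) with all 9 heme-fed mice above every control. Pcbp2, an iron chaperone for ferritin, was lower by -0.39 ± 0.05 (SE, limma, adjusted p = 2.25e-05), again with 9 of 9 beyond the controls (-0.17 with all its probe sets averaged), while its relative Pcbp1 was not called. Of all genes tested, 11.2% had all heme-fed mice above every control and 8.93% had all below. Herc2, an E3 ligase that acts on Ncoa4, was lower by -0.22 ± 0.07 (SE, limma, adjusted p = 0.0144), which median centring took past the threshold (limma, adjusted p = 0.0559), as did adding the smooth muscle level (limma, adjusted p = 0.0633). Ncoa4, the ferritin-degrading receptor itself, Fbxl5, the iron-sensing partner of Ireb2, and Epas1 (HIF-2α), known for its control of duodenal iron uptake, were not called, with differences of -0.07, 0.13 and -0.27 (limma, adjusted p = 0.326, 0.112 and 0.0596).

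Of the systemic iron regulators only 3 of 8 on the array were tested, and 1 was called (33.3%, against 53.6% of all genes tested). Neo1 (neogenin), a coreceptor of hemojuvelin, was lower by -0.71 ± 0.08 (SE, limma, adjusted p = 3.96e-06). All 9 heme-fed mice lay below every control, as they did for 8.93% of all genes tested. Hfe and Smad4 were not called. Without control mouse 1, and likewise without control mouse 4, 2 of the 3 were lower, as with quantile normalization or array weights. The same count came with probe sets averaged (all or those that pass), with the trend and robust variance model and with the distal colon covariate. Hepcidin itself (Hamp, Hamp2) and Hjv, Tmprss6 and Bmp6 lay under the floor on all arrays, as did the 6 red blood cell markers on the array, Hba-a1 and Alas2 among them.

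Genes of iron-sulfur cluster assembly, a main use of cellular iron, were more often higher than lower. Of 20 tested, 11 were higher, 2 lower and 7 not called (65.0% called, median difference 0.28), where 53.6% of all genes tested were called, 27.2% higher and 26.4% lower. The largest were Cisd1 (mitoNEET), at 12.01 ± 0.06 with heme and 11.41 ± 0.19 in controls (difference 0.60 ± 0.07 SE, limma, adjusted p = 6.67e-06), Bola3, at 10.32 ± 0.15 with heme and 9.74 ± 0.04 in controls (0.58 ± 0.07 SE, limma, adjusted p = 6.27e-06; 0.23 with all its probe sets averaged) and, in the other direction, the cytosolic assembly factor Mms19, at 6.11 ± 0.13 with heme and 6.67 ± 0.14 in controls (-0.57 ± 0.07 SE, limma, adjusted p = 1.38e-05). In each of these 3 all 9 heme-fed mice lay beyond every control on the same side. Among all genes tested, this held for 11.2% with heme higher and 8.93% with heme lower. The other gene that was lower was the cochaperone Hscb (-0.42, limma, adjusted p = 0.0209), named after its values were seen. Without control mouse 4, and likewise without control mouse 6, 1 gene of the list was lower. With a signal over 100 the count of lower genes was 0, and with all probe sets averaged it was 3. With the smooth muscle covariate 8 were higher and 2 lower.

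Of a list for heme breakdown and heme transport, with regulators among its genes, 10 were tested: 4 were higher, 3 lower and 3 not called (70.0% called against 53.6% of all genes tested, median difference -0.09). Beside Hmox1, the largest differences were in Slc46a1, the folate and low-affinity heme carrier, and Flvcr1, a plasma membrane protein known for heme export. Slc46a1 was at 3.96 to 5.21 in heme-fed mice, 7 of 9 at or under the floor, and at 4.13 to 8.56 in controls, where control mouse 4 was the 1 under the floor; it was called lower (limma, adjusted p = 1.87e-04). The fitted difference, -2.85 ± 0.49 (SE), is against heme values that mostly do not exceed the floor, and it was -1.80 once the smooth muscle level was a covariate. Flvcr1 was higher by 0.55 ± 0.10 (SE, limma, adjusted p = 3.55e-04), with 6 of 9 heme-fed mice above every control, and by 0.24 with all its probe sets averaged. With the smooth muscle covariate 2 genes of this list were higher and 2 lower.

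Of the hypoxia-induced genes, 12 were tested: 7 were higher, 1 was lower and 4 were not called (66.7% called against 53.6% of all genes tested, median difference 0.43). With the smooth muscle covariate 5 were higher and 1 lower. A link between this list and the rise of Tfrc was not tested. The largest were Ndrg1 (1.14 ± 0.09 SE, limma, adjusted p = 1.95e-07, 9 of 9 above every control), Egln3 (1.11 ± 0.28 SE, limma, adjusted p = 0.00336, 8 of 9) and Bnip3 (0.72 ± 0.17 SE, limma, adjusted p = 0.00222, 6 of 9). Among all genes tested, 11.2% had all 9 heme-fed mice above every control. The call of Bnip3 was lost with the smooth muscle covariate (0.67, limma, adjusted p = 0.0604). The gene that was lower was the histone demethylase Kdm3a (-0.26, limma, adjusted p = 0.0204), named after its values were seen, and Vegfa was not called (limma, adjusted p = 0.0620). The count of lower genes was 2 without heme mouse 2, 3 or 6 or control mouse 4, and without control mice 2 and 4 and heme mouse 6. It was also 2 with no signal filter and with the label number or the distal colon genes as covariate. With median centring, with the replicate block or without control mouse 6 it was 0.

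**Figure D5:**
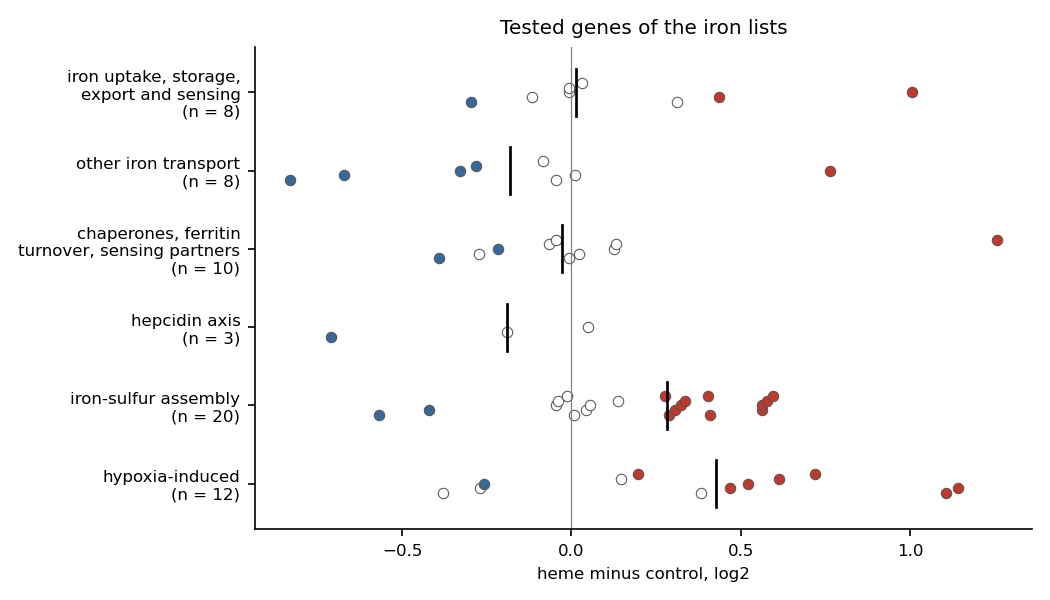
Difference in log2 expression, heme minus control, for each tested gene of the iron-related lists, red where higher, blue where lower and white where not called by limma at an adjusted p of 0.05, with the list's median as a black line. The 8 tested iron uptake, storage and export genes have a median of 0.01. The list of other iron transporters, metal reductases and oxidases has -0.18 and the iron-sulfur assembly genes 0.28.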

How the data were processed

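The authors deposited log2 expression values for each array, normalized with GCRMA 2.22.0 per the submitters' processing notes; scanner files were not used here, and no step beyond that is given in the sources used here. Probe sets were named from the platform annotation, in which 34958 list 1 gene symbol, 932 list several and 9211 were not listed. A gene was represented by the probe set with the highest mean and kept when over a signal of 20 on at least 6 arrays. Heme and control mice were compared with limma 3.58.1 (lmFit and eBayes, Benjamini-Hochberg over all genes tested) in R 4.3.3, and probe sets in a fit of their own; 95% intervals come from the same fit. Single genes were also tested by exact permutation. Control replicate 5 was not analysed here. The fit was tested on simulated data. The number of arrays limits the precision.

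All 10 iron genes are named; of each other iron list the 3 called genes with the largest difference are named, or all where 5 or fewer were called, and of marker lists at most 2 tested genes; for each called member the 3 genes with the highest correlation are named. The members and lists were chosen with earlier results of these data known. Alternatives were the filter, the probe set rule, normalization, variance model, array weights, covariates, blocking and leaving out mice. Promoter sequence is from RefSeq.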

Additional observations from a re-analysis of the deposited data

Results flagged for a closer look

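Dixon's test at its 95% critical value was run on the heme-fed and the control mice of each measured iron gene, 18 groups in all, and 2 groups held a mouse far from the rest; chance gives about 1 in 20. Aco1 in control mouse 1 was at 10.63, the lowest of the 6 controls, with the others at 10.87 to 10.99. Steap3 in heme mouse 9 was at 5.72, the highest of the 9 heme-fed mice, with the others at 4.18 to 4.77; the difference between the groups was 0.31 with it and 0.18 without it, and neither was called (limma, adjusted p = 0.143 and 0.117).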

How the results depend on the processing

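Tfrc (0.89 to 1.50) and Aco1 (0.33 to 0.50) kept their direction and their call in all 29 alternatives (limma, adjusted p = 0.00176 to 0.0130 for Tfrc). Ireb2 (-0.57 to -0.23) lost its call only with the replicate block, which left 0 members lower (-0.28, limma, adjusted p = 0.0807). With the mean of the probe sets that pass the filter 2 members were lower, Slc11a2 (-0.26, limma, adjusted p = 0.0367) joining Ireb2, and 3 were higher, Steap3 (0.40, limma, adjusted p = 0.0465) joining Tfrc and Aco1 through a probe set that passed only in heme-fed mice. Leaving out each mouse in turn gave 2 higher and 1 lower every time. Differences near 0 changed sign without a call. Fth1 was at 0.0416 with median centring, 0.0755 with quantile normalization, 0.00909 with array weights, 0.0161 with the replicate block, 0.0224 with the distal colon covariate, 0.0148 without control mice 2 and 4 and heme mouse 6, and -0.0306 to 0.0181 with each mouse left out. Slc40a1 was at 0.0566 with probe sets averaged, all or those that pass, 0.0391 with median centring, 0.0740 with the replicate block, and -0.0548 to 0.0369 with each mouse left out. Heph was at -0.00200 with quantile normalization, -0.0795 with the smooth muscle covariate, and -0.0102 to 0.0676 with each mouse left out. Myc turned to 0.23 with the smooth muscle covariate. The cause was not tested. The replicate numbers did not pair mice (same-number correlations of deviations -0.195 to 0.196, and 1 of 6 numbers best matched by its own). Only these 6 numbers occur in both groups, so heme-fed mice with other numbers carry no weight in the block fit. Over all genes the calls ran from 3510 with the smooth muscle covariate to 5663 with no filter, against 4961. With a signal over 100, or all probe sets averaged, Slc11a2 and Steap3 were not tested. Values under the floor cannot be ordered, which limits Slc11a2, Steap3 and Cybrd1.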
